A study of Homo sapiens with 12 samples.

Results

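The genes of glycolysis and of the cellular response to low oxygen were examined in human motor neurons (iMNs) and in NGN2-induced excitatory neurons (i3Ns). The set holds 32 genes chosen by name, and all 32 were listed in both deposited gene tables, among the 16093 genes that the tables share. The study compared neurons carrying an shRNA against *SMN1* and *SMN2* (*SMN*-KD) with neurons carrying a scrambled shRNA (SCR), after 12 days of knockdown. The iMNs were made with small molecules from an induced pluripotent stem cell (iPSC) line with a Td-Tomato reporter under the HB9 promoter, and Td-Tomato+ cells were sorted. The i3Ns were made from the human embryonic stem cell line H1 by inducible NGN2. Each neuron type therefore came from 1 stem cell line, and neuron type, line and protocol cannot be told apart. For each neuron type there were 3 SCR and 3 *SMN*-KD libraries, 12 in all, made from total RNA after removal of ribosomal RNA. Both groups carried the same inducible shRNA vector, delivered by lentivirus and switched on with doxycycline.

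The value used for each gene was the authors' mean normalized count, the average over all 6 libraries of a neuron type of the counts divided by DESeq2 size factors. It pools SCR and *SMN*-KD neurons, so it has no SD and no n, and values per library were not analysed here. The authors' own comparison of *SMN*-KD with SCR was not used, and the response of these genes to knockdown, as well as the depletion of *SMN1* and *SMN2* themselves, was not analysed here. The remaining question is how strongly the genes were expressed in the 2 neuron types, and how the isozymes were divided between them. Summed over all genes, these means came to 4.33e+07 in iMNs and 4.50e+07 in i3Ns, and the depth of single libraries is unknown. The 2 tables were normalized separately, so every level set across them rests on a rescaling made here. Log2 ratios of iMNs over i3Ns were centred on the median of the 12071 genes with a mean of at least 100 in both tables. The centre was -0.10, so each fold given is that of the centred ratio and exceeds the plain ratio of the printed means slightly towards iMNs. No replicate check and no test stands behind any difference between the neuron types, and the folds are descriptions of 2 pooled means. In these bulk samples, fewer cells of a type and less RNA per cell cannot be told apart.

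Glycolysis splits glucose into pyruvate in the cytosol and yields ATP without oxygen. Lactate dehydrogenase then interconverts pyruvate and lactate. When oxygen is scarce, prolyl hydroxylases of the EGLN family no longer mark HIF-1α for destruction, and the HIF transcription factors raise many glycolytic genes together with genes for blood vessel growth, collagen hydroxylation and removal of mitochondria. Neurons are known for *ENO2*, *SLC2A3* and *LDHB*, whereas *LDHA* and *HK2* are prominent in dividing cells.

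The marker genes matched the labels only in part. Pan-neuronal genes were abundant in both tables, with mean normalized counts for *MAP2* of 112758 in iMNs and 82776 in i3Ns. They did not move together, since *SNAP25*, a synaptic gene, was 4.07-fold higher in iMNs (18426 against 4847) and *RBFOX3* was also higher there (1886 against 1351), whereas *TUBB3* was at 58362 and 70054. The vesicular glutamate transporters were far higher in i3Ns, at 11237 against 593 for *SLC17A6* and 6490 against 50.1 for *SLC17A7*. Of the 7 motor neuron markers, the choline transporter gene *SLC5A7* was higher in iMNs (8460 against 2472), as was *SLC18A3*, the vesicular acetylcholine transporter gene (3115 against 1865), and *CHAT* was at 533 and 527. In contrast, *MNX1*, which encodes HB9, was higher in i3Ns (2279 against 430). *ISL1*, *ISL2* and *LHX3* also stood higher in i3Ns, so 4 of the 7 went against the label by at least 2-fold. Astrocyte markers were at or near 0, since none of 3 was listed in iMNs and 1 of 3 in i3Ns at a mean of 3.64. Endothelial markers summed to 19.3 and 22.9. Markers of dividing cells summed to 213 in iMNs and 1082 in i3Ns, and *MKI67* was at 28.3 and 522. Markers of mesenchymal cells summed to 2596 and 6475, with *COL1A1* at 1321 and 4228, *COL3A1* at 507 and 1053, *ACTA2* at 80.9 and 583, and *COL1A2* at 686 and 611. Oligodendrocyte markers were represented by *MBP*, at 329 and 949, with *SOX10* listed in neither table. The pluripotency genes were not listed in iMNs and summed to 21.6 in i3Ns. The part of these other cells in the differences given below was not tested.

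The levels ran from the most abundant transcripts of the neurons to barely detected ones. *GAPDH*, which oxidises glyceraldehyde 3-phosphate, had the highest mean normalized count of the set, 78355 in iMNs and 68488 in i3Ns. *ADM*, which encodes the vasodilator peptide adrenomedullin, had the lowest, 12.8 and 14.6. *ADM* and *ANKRD37* (37.7 and 58.2) stayed under a mean of 100 in both tables, and the other 30 genes reached 100 in at least 1 of them. To compare genes with each other, each mean was divided by the length of the gene's MANE Select transcript. On this per-length scale, 14 of the 32 genes in iMNs and 15 in i3Ns lay at or above the 90th percentile of their table. These were almost all glycolytic enzymes. The 15 enzymes from hexokinase to pyruvate kinase had a median percentile of 96.8 in iMNs and 98.2 in i3Ns, and the 10 genes of HIF, its oxygen sensors and other hypoxia genes had medians of 51.4 and 54.2.

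**Figure D1:**
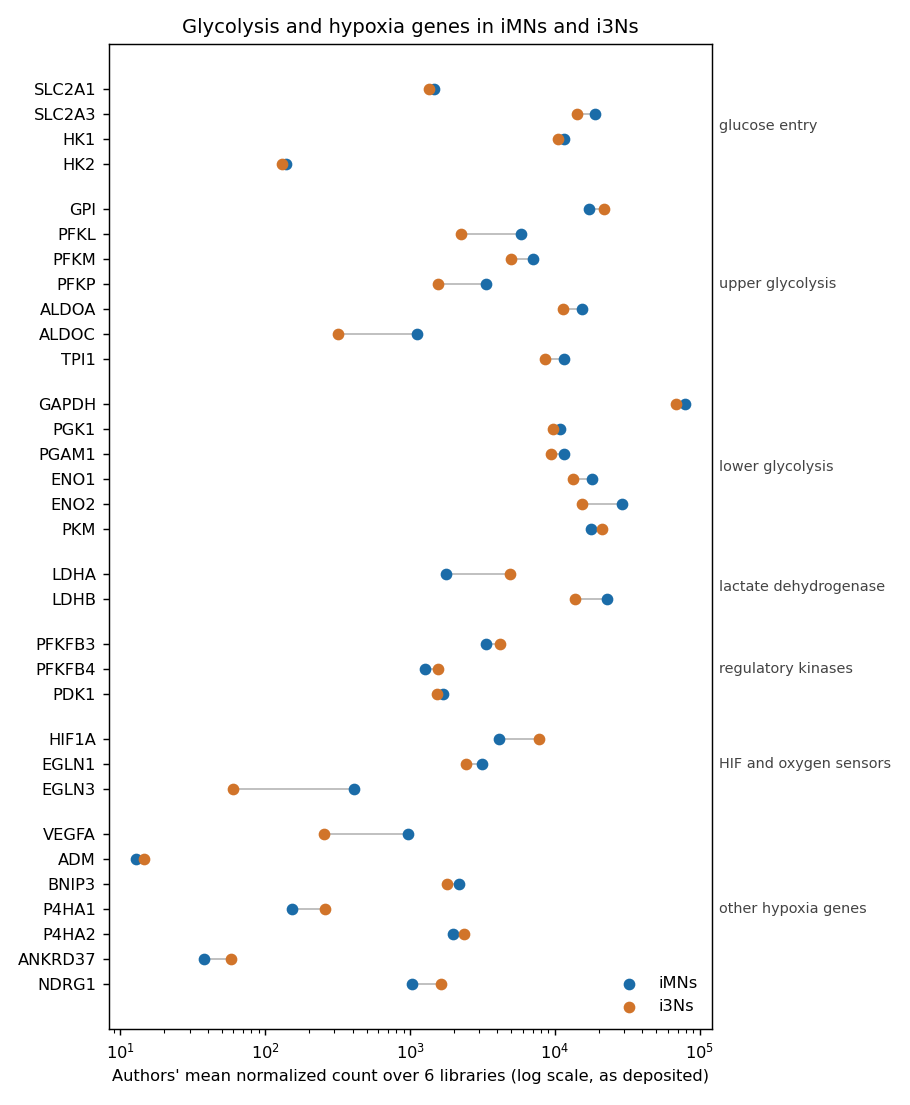
The authors' mean normalized count of each of the 32 genes (log axis, as deposited) is plotted for iMNs and i3Ns, grouped by role; a grey line joins the values of a gene. GAPDH is highest at 78355 and 68488, ADM lowest at 12.8 and 14.6, and the widest gap is that of EGLN3.

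Of the 30 genes with a mean of at least 100, 6 were at least 2-fold higher in iMNs, which is 20% of them, against 12.5% of the 13317 genes that met the same minimum. The 6 were *EGLN3* (ENSG00000129521), *VEGFA* (ENSG00000112715), *ALDOC* (ENSG00000109107), *PFKL* (ENSG00000141959), *PFKP* (ENSG00000067057) and *ENO2* (ENSG00000111674). Of them, *EGLN3* met the minimum through its iMN mean only, since its i3N mean was 60.2. Only *LDHA* (ENSG00000134333) was at least 2-fold higher in i3Ns, 3.33% of the 30 against 8.87% of all genes. With a minimum of 1000 in either table, 4 of 26 genes (15.4%) were higher in iMNs, against a background of 10.2%, and 1 (3.85%) in i3Ns, against 6.24%. Of the 4, *ALDOC* met this minimum through its iMN mean only (1114 against 315). With a 1.5-fold threshold the counts were 8 of 30 towards iMNs, against 21.8% of all genes, and 3 of 30 towards i3Ns, against 17.4%. With a 3-fold threshold they were 3 of 30, against 6.89%, and 0 of 30, against 4.57%. The counts of members are small, and none of these shares is read as particular to the set. Whatever the size, 21 of the 32 genes lay above 0 on the centred log2 scale, with a median of 0.28. Of the 30 genes with the minimum mean, 21 lay above 0, with a median of 0.34. Among the 13317 genes that met the same minimum, the median was 0.0024 and 50.1% lay above 0. Of the 32, 15 lay between the quartiles of those 13317 genes, -0.39 and 0.49.

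**Figure D2:**
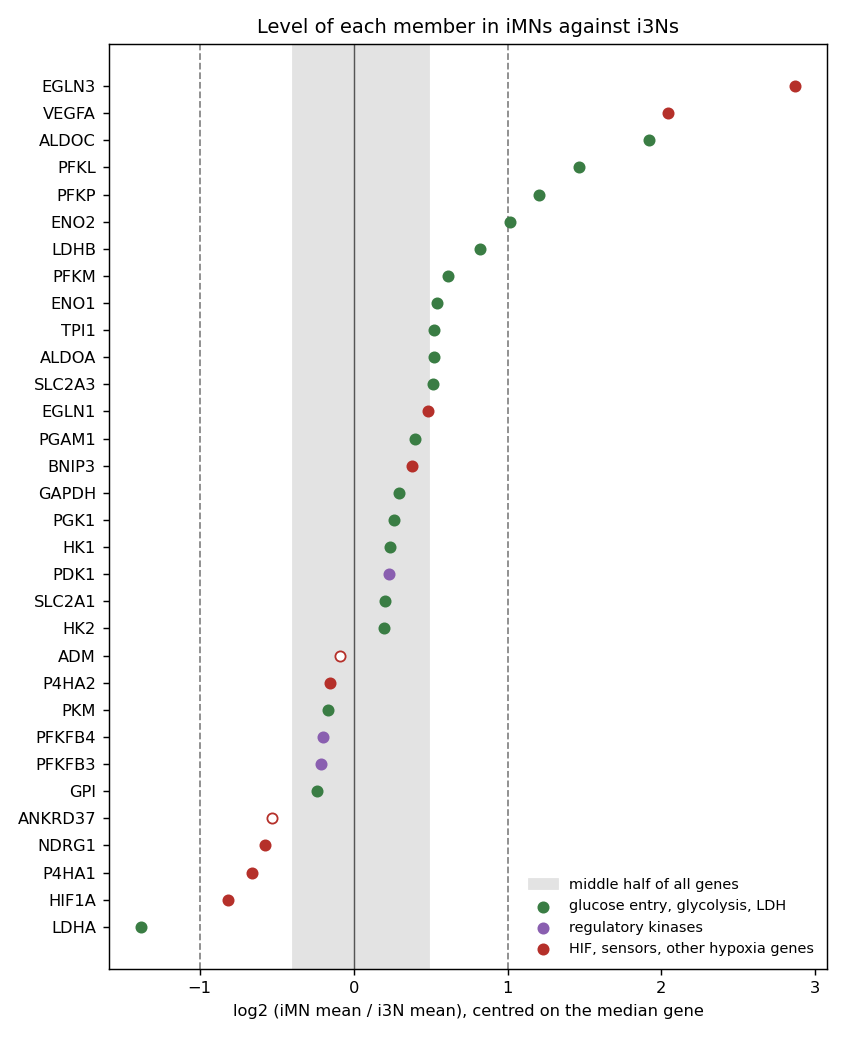
The log2 ratio of the iMN mean over the i3N mean, centred on the median gene, is shown for each of the 32 genes; the grey band spans the quartiles of 13317 genes (-0.39 to 0.49), dashed lines mark 2-fold, and open circles are the 2 genes under a mean of 100. EGLN3, VEGFA, ALDOC, PFKL, PFKP and ENO2 lie beyond 2-fold towards iMNs, and LDHA beyond it towards i3Ns.

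The 4 genes of glucose entry all stood within 1.43-fold between the 2 neuron types. The neuronal glucose transporter gene *SLC2A3* had mean normalized counts of 18766 in iMNs and 14092 in i3Ns, the largest difference of these 4. *SLC2A1*, which encodes the transporter of the blood-brain barrier and many other cells, was at 1458 and 1358. Per kb of transcript, *SLC2A3* made up 91.9% of the pair in iMNs and 90.2% in i3Ns. Hexokinase phosphorylates glucose and so keeps it in the cell. *HK1*, its usual brain form, stood at 11562 and 10493, whereas *HK2* was at 138 and 129. *HK1* took 99.2% of their per-length sum in both neuron types.

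Phosphofructokinase, the main control point of glycolysis, showed the widest gap of the 11 enzyme steps. Its 3 subunit genes summed to 5550 counts per kb in iMNs and 2970 in i3Ns, 2.00-fold higher in iMNs. *PFKL*, the liver-type subunit, on chromosome 21 (44300051 to 44327376, GRCh38), had means of 5780 and 2249, a 2.75-fold difference. *PFKP*, the platelet-type subunit, on chromosome 10 (3066333 to 3137718), had means of 3355 and 1559, a 2.31-fold difference. *PFKM*, the muscle-type subunit, differed less, at 7059 and 4952. It was the largest subunit by length-corrected level in both, with 41.2% of the sum in iMNs and 54.0% in i3Ns. *PFKL* held 35.8% in iMNs and 26% in i3Ns, and *PFKP* held the smallest share in both.

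The other steps of upper glycolysis differed less in sum. *GPI*, the isomerase after hexokinase, was the only gene of this stretch that stood lower in iMNs, at 17126 against 21597. A second row of *GPI* lies outside the main annotation and adds 2330 counts in iMNs and 53.4 in i3Ns, and with it the log2 ratio moved from -0.23 to -0.05. Aldolase cleaves fructose 1,6-bisphosphate. *ALDOA*, the widespread form, had means of 15255 and 11406. *ALDOC*, the brain form, which is also known from astrocytes and Purkinje cells, was 3.78-fold higher in iMNs, at 1114 against 315. It lies on chromosome 17 (28573115 to 28576948, minus strand) and made up 6.93% of aldolase per length in iMNs and 2.74% in i3Ns. *TPI1*, which interconverts the triose phosphates, was at 11473 and 8543.

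The 6 genes of lower glycolysis all lay above the 90th percentile in both neuron types. *GAPDH* reached 60977 counts per kb in iMNs and 53298 in i3Ns. *PGK1*, the first ATP-forming kinase of the pathway, had mean normalized counts of 10762 and 9596, and *PGAM1*, the mutase after it, had 11561 and 9405. Enolase was the step of lower glycolysis with the largest difference. *ENO2*, the neuron-specific enolase, had means of 29024 in iMNs and 15348 in i3Ns, a 2.03-fold difference just past the threshold. Of the 4 pan-neuronal markers, only *SNAP25* was also more than 2-fold higher in iMNs. *MAP2* (112758 against 82776) and *RBFOX3* (1886 against 1351) were higher there by less than 2-fold. *TUBB3* was lower in iMNs (58362 against 70054). The relation of these markers to the level of *ENO2* was not tested. *ENO2* lies on chromosome 12 (6913745 to 6923698). *ENO1*, the widespread form, differed 1.46-fold (17976 and 13210). Per kb, *ENO2* held 55.6% of enolase in iMNs and 47.4% in i3Ns. With coding length in place of transcript length these shares were 61.8% and 53.7%, so which form leads in i3Ns turned on the length used. *PKM*, which encodes pyruvate kinase, was slightly lower in iMNs, at 17549 against 21070, and its splice forms were not told apart.

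**Figure D3:**
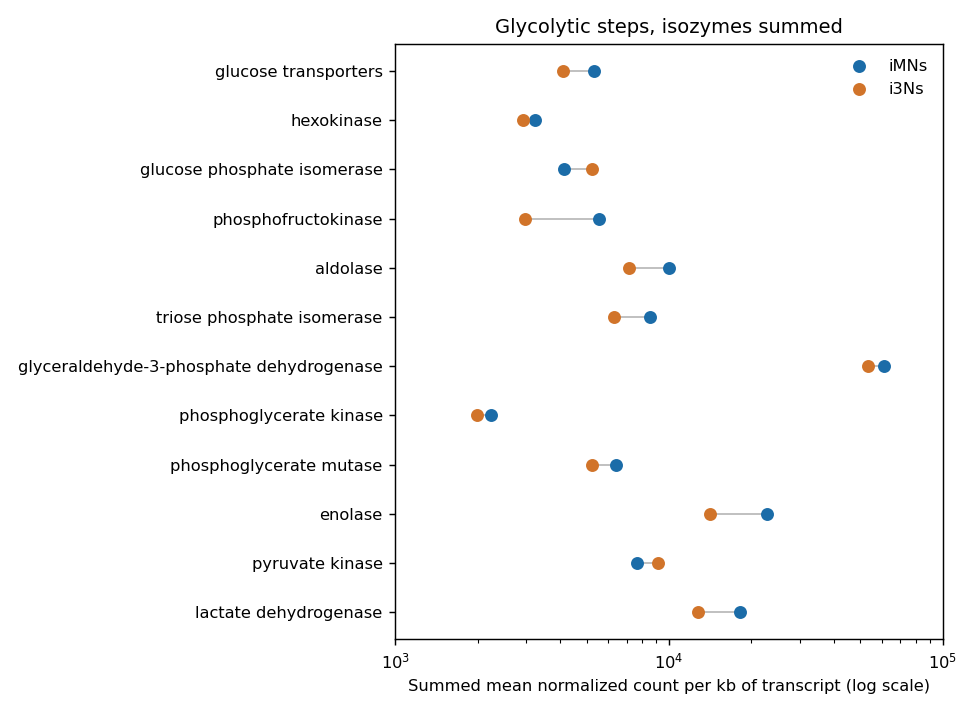
The summed mean normalized count per kb of transcript (log axis) of each step is plotted for iMNs and i3Ns, with isozymes added together and GPI on its main row. The widest gap is that of phosphofructokinase (5550 and 2970), and glucose phosphate isomerase and pyruvate kinase are the steps that stand higher in i3Ns.

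Summed by step, 9 of the 11 enzyme steps stood higher in iMNs and 2 higher in i3Ns, with log2 ratios from -0.23 to 1.00 and a median of 0.40. Of all single genes, 50.1% lay above 0. *GAPDH*, *TPI1*, *ENO2* and *LDHB*, which enter these steps, lie on a stretch of chromosome 12 bounded here by members of the set. In that stretch, 77.8% of the other genes also lay above 0. The values by step compare pooled means of 2 tables and carry no error.

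The 2 genes of lactate dehydrogenase ran in opposite directions. *LDHB*, whose subunits favour the use of lactate, had mean normalized counts of 22760 in iMNs and 13824 in i3Ns, 1.76-fold higher in iMNs. *LDHA*, whose subunits favour the making of lactate, was at 1764 in iMNs and 4917 in i3Ns, 2.60-fold higher in i3Ns. Among all genes, 5.57% lay at least as far towards i3Ns as *LDHA*. The summed markers of dividing cells (213 and 1082) and of mesenchymal cells (2596 and 6475, mostly *COL1A1* in i3Ns, with *COL1A2* slightly higher in iMNs) were also higher in i3Ns. *HK2*, named above with *LDHA* for dividing cells, was not, at 138 in iMNs and 129 in i3Ns. The part of these other cells in the level of *LDHA* was not tested. Per kb of transcript, *LDHB* exceeded *LDHA* 22.2-fold in iMNs and 4.84-fold in i3Ns, so *LDHA* made up 4.31% of the enzyme's transcripts in iMNs and 17.1% in i3Ns. With coding length the shares of *LDHA* were 7.23% and 26.4%. *LDHA* lies on chromosome 11 (18394560 to 18408425) and *LDHB* on chromosome 12 (21635342 to 21757857, minus strand).

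**Figure D4:**
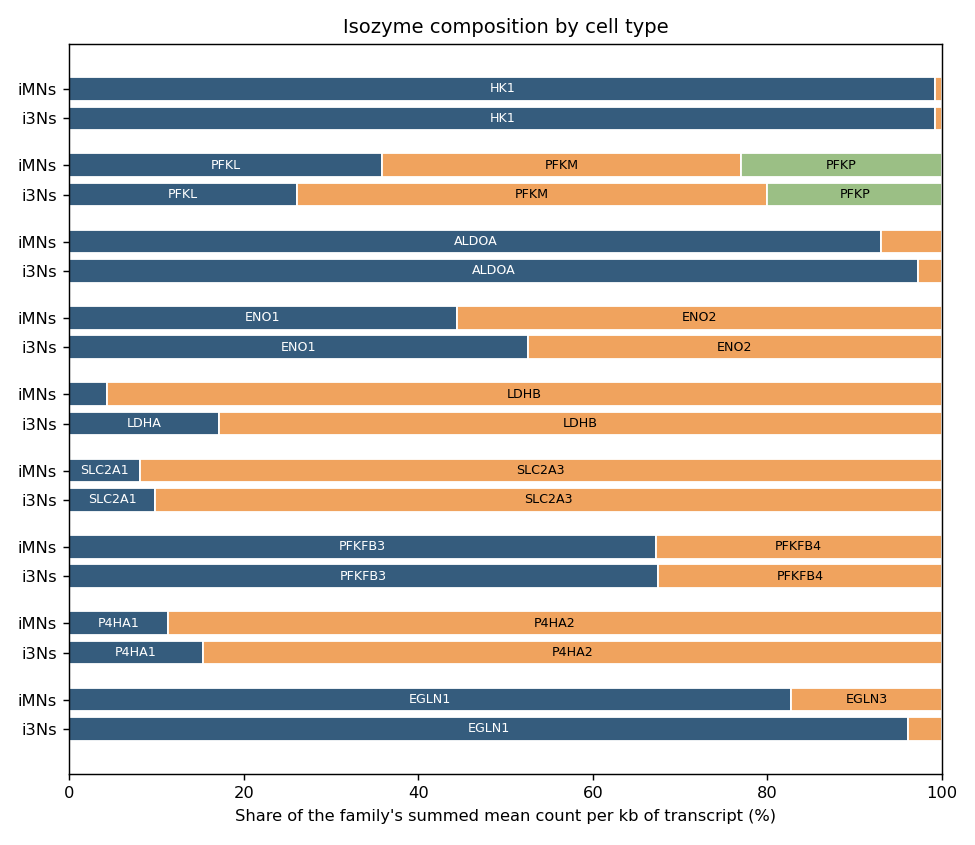
Bars give the share (%) of each gene in its family's summed mean count per kb of transcript, in iMNs and i3Ns, for 9 families, in the order HK1 and HK2, PFKL, PFKM and PFKP, ALDOA and ALDOC, ENO1 and ENO2, LDHA and LDHB, SLC2A1 and SLC2A3, PFKFB3 and PFKFB4, P4HA1 and P4HA2, EGLN1 and EGLN3. LDHA takes 4.31% in iMNs and 17.1% in i3Ns, and EGLN3 takes 17.3% and 3.85%.

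HIF binds the core letters ACGTG or GCGTG, and the promoter windows of RefSeq (GRCh38.p14), from 250 bases before a start site to 50 after, were searched for both on both strands. Of the 29 members with a window, 26 (89.7%) held a match in at least 1 of their windows, against 71.2% of the 10050 genes with a window that met the minimum mean in either table. By window, 34 of 52 (65.4%) of the members and 48.4% of all 35116 windows held a match. These 35116 windows were taken without the minimum mean, so this background is not that of the genes. The letters are common in promoters in general. The windows of *EGLN3*, *P4HA2* and *PGAM1* held neither, and ACGTG overlaps its own reverse complement within CACGTG. Stretches around 1 match each are shown for the member that was higher in i3Ns and for a pair that was higher in iMNs, with ACGTG on either strand in capitals, each 30 bases long and written along the gene's strand.
LDHA, chr11:18394477-18394506: ACGTGggttcccgCACGTccgccggccccc
ENO2, chr12:6914449-6914478: cacccgcgctcgtACGTGcgcctccgccgg
ALDOC, chr17:28576907-28576936 (minus strand): cccccggaggagtCACGTagctctgcgaca
The match the stretch was cut around begins 73 bases before the start site in *LDHA*, 118 in *ENO2* and 28 in *ALDOC*. These are start sites of RefSeq, and the printed stretches of *ENO2* and *ALDOC* lie inside the genes as GENCODE bounds them, whereas that of *LDHA* lies before the gene. *LDHA* held the letters, as did *ENO2*, *ALDOC*, *PFKL* and *PFKP* of the genes higher in iMNs. *EGLN3* did not, and *VEGFA*, *SLC2A3* and *NDRG1* had no window. Occupancy by HIF was not measured.

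The 3 regulatory kinases of the set lay within the quartiles of all genes, but related kinase genes outside the set did not all do so. *PFKFB2* was 3.29-fold higher in iMNs (1034 against 337) and *PDK3* 2.04-fold (3438 against 1808), whereas *PDK2* was at 573 and 654. *PFKFB3* makes fructose 2,6-bisphosphate, the activator of phosphofructokinase, and had means of 3344 in iMNs and 4154 in i3Ns. *PFKFB4*, a related form, had 1275 and 1565, and *PFKFB3* took 67.2% of the pair per length in iMNs and 67.5% in i3Ns. *PDK1*, which phosphorylates and so inhibits pyruvate dehydrogenase, the enzyme that turns pyruvate into acetyl-CoA in the mitochondria, was at 1676 and 1530.

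The genes of HIF and its oxygen sensors did not move as a block. *HIF1A*, on chromosome 14 (61695513 to 61748259), encodes HIF-1α and was lower in iMNs, at 4088 against 7708, which is 1.76-fold higher in i3Ns. HIF-1α is regulated mainly through the stability of the protein, which was not measured here. *EGLN1*, the main prolyl hydroxylase that acts on it, had means of 3150 and 2410. *EGLN3*, a hydroxylase that HIF itself induces, showed the widest ratio of the set, with 410 in iMNs and 60.2 in i3Ns, 7.29-fold higher in iMNs. Its gene lies on chromosome 14 (33924227 to 34462774, minus strand). Among all genes, 2.70% lay at least as far towards iMNs. *EGLN3* held 17.3% of the pair with *EGLN1* per length in iMNs and 3.85% in i3Ns.

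The remaining hypoxia genes went both ways. *VEGFA*, the growth factor of blood vessels, on chromosome 6 (43770184 to 43786487), had means of 972 in iMNs and 253 in i3Ns, a 4.12-fold difference. *BNIP3*, a receptor for the removal of mitochondria, was at 2183 and 1802. The collagen prolyl hydroxylase subunit genes stood lower in iMNs, *P4HA1* at 152 against 257 and *P4HA2* at 1976 against 2359, and *P4HA2* took 88.7% and 84.7% of the pair per length. *NDRG1*, a stress-responsive gene that HIF induces, was at 1027 and 1641. Of the 10 genes of HIF, its sensors and other hypoxia genes, 4 lay above 0 and 6 below, with a median of -0.12, so *EGLN3* and *VEGFA* were the 2 that stood apart by more than 2-fold.

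Genes of the same pathways outside the set gave a background for these values. Of 30 further genes of glycolysis and pyruvate handling, 20 were listed in iMNs and 26 in i3Ns, and 17 reached a mean of 100 in a table while listed in both. Of these, 3 (17.6%, against 12.5% of all genes) were at least 2-fold higher in iMNs and 2 (11.8%, against 8.87%) in i3Ns, with a median log2 ratio of 0.16. The lactate exporter gene *SLC16A3* (MCT4) had means of 686 in iMNs and 197 in i3Ns, 3.73-fold higher in iMNs. *SLC16A7* (MCT2), the neuronal lactate importer, ran the other way, at 518 and 1501, and *ENO3*, the muscle enolase, was at 39.4 and 157. The iMN mean of *ENO3* lay under the minimum of 100. Of 26 further genes of the HIF pathway, 20 met the minimum, 4 of them (20%) at least 2-fold higher in iMNs and 2 (10%) in i3Ns, with a median of -0.29. *STC2*, which encodes the glycoprotein stanniocalcin-2, was 10.1-fold higher in iMNs (445 against 47.1, the latter under the minimum). *HIF3A*, a HIF family member, was 3.84-fold higher in iMNs (446 against 124). *LOXL2*, a collagen cross-linking enzyme, was 2.72-fold higher in i3Ns (536 against 184).

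**Figure D5:**
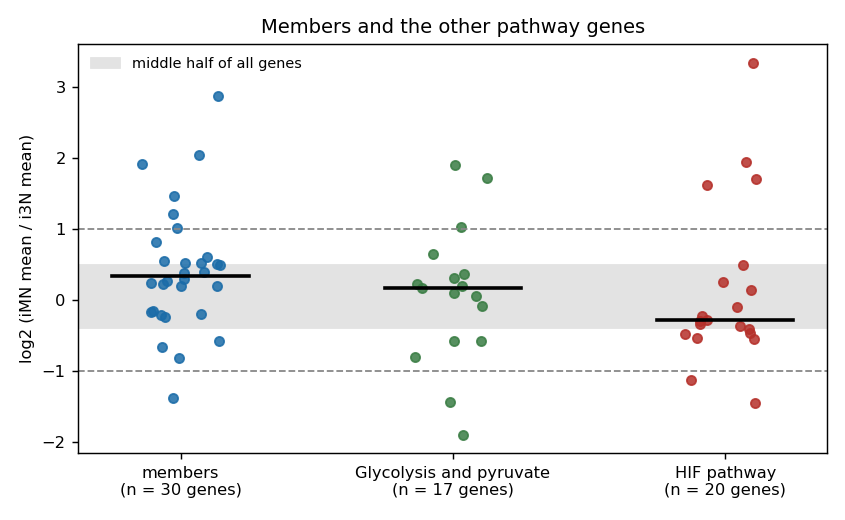
The centred log2 ratio of iMNs over i3Ns is shown for the 30 members with a mean of at least 100 and for the 17 and 20 other genes of the 2 pathway lists that met it; black bars are medians (0.34, 0.16 and -0.29), the grey band spans the quartiles of all genes, and dashed lines mark 2-fold. The points of all 3 lists spread on both sides of 0.

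Some members lie near each other on chromosome 12. The stretch described here is bounded by members themselves and was set after seeing the data. No other stretch of that size is given for comparison. Of the 6 members on chromosome 12, 5 lie between 6534512 and 21757857 (GRCh38), namely *GAPDH*, *TPI1*, *ENO2*, *SLC2A3* and *LDHB*, and all 5 had positive log2 ratios, from 0.29 to 1.02. The 72 other genes of that stretch had a median log2 ratio of 0.46, and 56 of them (77.8%) lay above 0. On the remainder of chromosome 12, 573 other genes had a median of -0.07, and the member that lies there, *PFKM*, had a log2 ratio of 0.61. The part of this regional difference in the values of the 5 genes was not tested. Without these 5, the median of the set was 0.23.

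Near-identical copies could take reads from some members. Rows named as processed pseudogenes of a member were found for 5 genes in iMNs and 9 in i3Ns, and their summed means were at most 0.513% and 0.568% of the parent gene. How the quantification divided reads between copies cannot be seen in a pooled mean.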

How the data were processed

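Total RNA of 12 libraries was sequenced. Per the paper's methods and the submitters' processing notes, the authors used fastp to trim the reads, Salmon to quantify them and DESeq2 to compare the groups. The versions, the annotation and the filter on low counts are not given in the sources used here. The deposited tables, 1 for each neuron type, hold for each gene a mean normalized count, which was treated as a signal pooled over 6 libraries, and the authors' log2 fold change, standard error, p-value and adjusted p-value of *SMN*-KD against SCR. These last 4 columns were not used. No counts per library were used, so no count test was run.

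Rows were taken by gene name, and for a symbol with several rows the row in GENCODE release 44 (GRCh38) was kept. Per-length values used its MANE Select transcript, and whether the authors' counts were already corrected for length is not given. Percentiles are ranks of the mean per kb among the table's genes with a length. The fold threshold was 2 and the minimum mean 100. The rule for named genes took every member, and from the lists of other pathway genes at most 3 in each direction. Members and lists were chosen with earlier results of these data known. The centring was tested on simulated data, made from the i3N means with equal numbers of genes raised and lowered. That setting cannot show how the centre behaves where the differences are uneven, as they were between these neuron types. Python 3.11.15, pandas 2.3.3 and NumPy 2.4.6 were used. Alternatives changed the scaling, the threshold, the minimum, the summing of rows and the length.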

Additional observations from a re-analysis of the deposited data

Results flagged for a closer look

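*GPI* has a second row under an identifier outside the main annotation (ENSG00000282019), which the main values leave out. Its mean normalized count was 2330 in iMNs and 53.4 in i3Ns, so it held 12% of the summed *GPI* signal in iMNs and 0.246% in i3Ns. The level of *GPI* in iMNs is therefore uncertain by that amount.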

How the results depend on the processing

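Scaling to the summed means or leaving the tables unscaled moved all log2 ratios by -0.04 and -0.10, changed the sign of 0 of the 32 genes, and left 5 genes at least 2-fold higher in iMNs, *ENO2* being the gene lost. The median difference was then 0.24 and 0.18, against 0.28. With a 1.5-fold threshold, 8 genes were higher in iMNs (background 21.8%) and 3 in i3Ns (17.4%). With a 3-fold threshold, 3 were higher in iMNs (6.89%), namely *EGLN3*, *VEGFA* and *ALDOC*, and 0 in i3Ns (4.57%). Summing rows, centring on genes with a mean of at least 1000 or on protein-coding genes left the counts at 6 and 1. The protein-coding centre, the minimum of 1000 on the genes counted, the ranking without length and the values without the 5 genes of the chromosome 12 stretch were chosen after seeing the data. Without those 5, the count in iMNs was 5. At or above the 90th percentile were 13 to 14 genes in iMNs and 12 to 15 in i3Ns, depending on the genes ranked against and on length. No share of an isozyme moved by more than 10 percentage points with coding length. No paired analysis was possible because the deposited columns used pool all 6 libraries of a neuron type, and for the same reason no replicate could be left out and no count model was run.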

Other observations

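Other parts of the HIF system were chosen for mention after their values were seen. *EPAS1*, which encodes HIF-2α, was low in both neuron types, with mean normalized counts of 29.9 in iMNs and 44.2 in i3Ns. *ARNT2*, the neuronal partner subunit of the HIF-α proteins, was abundant at 13964 and 13560, and the widespread partner *ARNT* was at 1182 and 1830. *VHL*, the ubiquitin ligase subunit that binds hydroxylated HIF-α, was at 3776 and 5242. *HIF1AN*, the asparaginyl hydroxylase of HIF-α, was at 3713 and 5267, and *EGLN2*, the third prolyl hydroxylase, was at 3502 and 4756. These 3 negative regulators were between 1.27-fold and 1.32-fold higher in i3Ns, within the quartiles of all genes except *HIF1AN*, which had a log2 ratio of -0.40.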
